A study of Mus musculus with 6 samples.

Results

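The cytosolic ribosomal proteins are the protein parts of the ribosome that translates nuclear messages. They were taken as every gene named in the manner of the Rpl and Rps families, together with the stalk genes Rplp0, Rplp1 and Rplp2 and with Rpsa, on probe sets that the platform annotation gives 1 gene symbol. The Rps6k kinases were left out, and ribosomal protein genes with names of another kind, such as Fau, are not caught by this rule. This gave 58 genes of 12780 in all, of which 35 are named for the large and 23 for the small subunit. The subunit was read from the name alone, also for relatives such as Rpl7l1 and the transcribed pseudogene Rps4l. Another 17 ribosomal protein symbols, among them Rpl3, Rpl11, Rpl13a and Rps27, occurred only on probe sets that carry several symbols and are no members.

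RNA came from migratory type 1 conventional dendritic cells (cDC1), cells that carry antigen from skin to the draining lymph nodes and present it to CD8 T cells. There were 3 anti-CD40 stimulated samples and 3 unstimulated samples, each on 1 Affymetrix array. All were from wild-type C57BL/6 mice and were sorted as XCR1-positive, CD40-positive cells that had high MHC II, intermediate CD11c and no Sirpa, CD326 or B220. Age, the dose and timing of the antibody, and whether it was given in the animal are not stated in the sources used here. The labels call the replicates biological but do not state if separate mice or pools were used, so the p-values cover no more than the spread among these 6 samples. The question of the series is how engaging CD40, the receptor through which helper T cells license dendritic cells, changes their expression.

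The large subunit joins amino acids and the small subunit reads the message, and each ribosome needs its proteins in near equal number. Mammalian ribosomal protein messages begin with a run of pyrimidines, the 5′ terminal oligopyrimidine (TOP) tract, through which the kinase mTOR and the protein LARP1 adjust their translation together. In dendritic cells, maturation is known to be accompanied by changes in protein synthesis, and much of the control of ribosomal proteins acts on translation rather than on the amount of message that an array reads.

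Promoter sequence was available in the RefSeq tables (GRCm38.p6) for 46 of the 58 genes, in 54 promoters. A run of at least 8 C or T letters on the gene's strand, within 20 bases before to 50 bases after the annotated start, stood in 35 of these 54 promoters (64.8%), against 25.4% of all 32851 promoters and 24% of the 75 promoters of mitochondrial ribosomal proteins. A C followed by 4 pyrimidines exactly at the annotated start was found in 18.5% of ribosomal protein promoters and 2.51% of all. The annotated start can differ from the start that these cells use, so the match describes the letters only. The windows of 30 bases that follow show the longest run within the stretch searched, in capitals where it reaches 8 letters. Each window is centred on that run, except in Rps2, where the run ends that stretch. The Rpl7l1 window opens with a longer run that lies before the stretch searched. Of the genes with a promoter, the first 5 are those whose level on the arrays numbered 1 was furthest below the other arrays of the group. The last 5 are those for which it was highest, leaving out Rps14, whose sequence is not shown. This difference between arrays is described further on.
Rpl13 (chr8:123102324-123102353, plus strand): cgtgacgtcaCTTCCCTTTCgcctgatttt
Rpl32l (chr10:20208429-20208458, plus strand): aaatgaccagCTTCTTCCTTggtgctgcct
Rps18 (chr17:33955647-33955676, minus strand): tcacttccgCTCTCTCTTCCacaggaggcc
Rpl24 (chr16:55966295-55966324, plus strand): gaagtgacatcatctctgggcgccggggtc
Rplp2 (chr7:141447636-141447665, plus strand): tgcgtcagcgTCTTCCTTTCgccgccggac
Rps2 (chr17:24720083-24720112, plus strand): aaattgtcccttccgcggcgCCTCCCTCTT
Rplp0 (chr5:115559467-115559496, plus strand): ggaccgcctggttctcctataaaaggcaca
Rpl7l1 (chr17:46782659-46782688, minus strand): cctctctaccccgcccggtgaggctgcgca
Rpl4 (chr9:64173406-64173435, plus strand): agcgtggCCTTCTCCTCTCCCCgtcatggt
Rps3 (chr7:99483673-99483702, minus strand): gcggcgtcattgctcccgccctatatacct

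A run of 8 or more stood in 4 of the first 5 genes and in 2 of the last 5. In those 4 it began between 16 bases before the annotated start and the start itself. In Rps2 and Rpl4 it began further on, at bases 41 and 27 counted from the start. Among all members with a promoter such a run stood in 27 of 34 genes that were lowest on the arrays numbered 1 in both groups, and in 7 of the 12 others. The letters CCGGAAG, the core bound by ETS factors such as GABP, stood on either strand in 35.2% of ribosomal protein promoters, against 34.7% of mitochondrial ribosomal protein promoters and 8.86% of all promoters. In the same order, GGGCGG, the core of SP1 sites, stood in 59.3%, 52% and 35.7%, and AAGATGGC, read by YY1, in 5.56%, 16% and 2.75%. TATAAA stood in 11.1%, 6.67% and 13.6%. Split by the arrays numbered 1 like the pyrimidine run, the ETS letters stood in 16 of the 34 genes and 2 of the 12 others. The C with 4 pyrimidines at the start stood in 9 and 1, and the SP1 letters in 19 and 9. The YY1 letters stood in 2 and 1, and TATAAA in 4 and 2. These splits were not tested. The stretches below run from 150 bases before to 25 bases after the start. They are those of Rpl13 and Rps2, at either end of the order by level on the arrays numbered 1. Capitals mark a run of at least 8 pyrimidines and the ETS, SP1 and TATA letters named above, on either strand.
Rpl13 (chr8:123102200-123102374, plus strand): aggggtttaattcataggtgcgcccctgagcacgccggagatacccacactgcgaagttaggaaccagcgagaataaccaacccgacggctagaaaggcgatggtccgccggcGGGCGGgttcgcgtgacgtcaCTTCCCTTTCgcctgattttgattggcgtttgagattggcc
Rps2 (chr17:24719913-24720087, plus strand): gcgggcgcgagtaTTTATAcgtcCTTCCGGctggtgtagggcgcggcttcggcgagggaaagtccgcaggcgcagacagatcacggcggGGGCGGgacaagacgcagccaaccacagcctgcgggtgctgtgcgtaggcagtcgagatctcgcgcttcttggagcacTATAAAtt

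Anti-CD40 stimulated and unstimulated cDC1 did not differ in any ribosomal protein message past the test. Of the 58 genes, 0 passed an adjusted p under 0.05 in limma's test over all genes, in either direction, where 0.0156% of the 12780 genes were called higher and 0% lower. The 58 log2 differences ran from -0.20 to 0.33, or 0.872-fold to 1.25-fold, with a median of -0.02, against a median of 0.005 for all genes. There were 23 genes with positive and 35 with negative differences. At an unadjusted p under 0.05 the count was 0 of 58, against 3.49% of all genes, and the smallest unadjusted p of a member was 0.171.

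The stimulated and unstimulated values overlapped for all 58 genes. Of all genes, 3.68% were higher and 3.46% lower in stimulated cells without overlap, together 7.14%. A difference of at least 1.5-fold was present in 0 members and in 5.09% of all genes. The large subunit had a median difference of -0.03 (15 positive, 20 negative), and the small subunit one of -0.01 (8 positive, 15 negative). A p above the threshold does not show equal levels, and the intervals give the differences these arrays allow when the samples are taken as unpaired. For 54 of the 58 genes the 95% interval lay within 2-fold of no difference, as it did for 77.9% of all genes. It lay within 1.5-fold for 16 members, 27.6% of them, and for 33.2% of all genes. The 4 genes whose interval reached past 2-fold were Rpl13, Rpl32l, Rpl36 and Rps18.

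**Figure D1:**
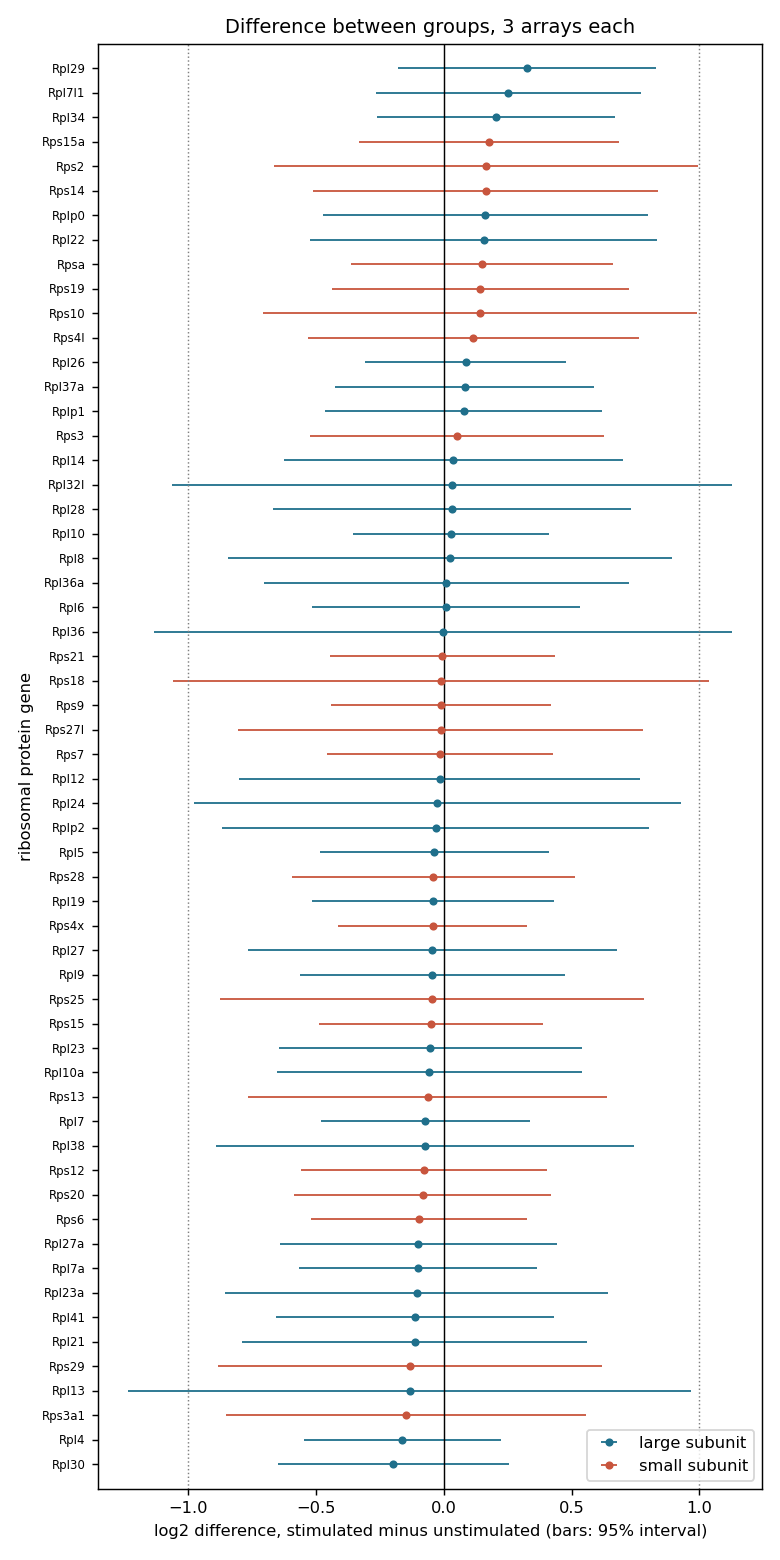
Log2 difference, stimulated minus unstimulated, of the 58 ribosomal protein genes with its 95% interval (bars), 3 arrays in each group, large subunit and small subunit in separate colours; dotted lines mark a 2-fold difference. Every interval holds 0, and 4 of the 58 reach past 2-fold.

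Among the stalk proteins, which stand out from the large subunit and recruit the factors that drive each step of translation, no member passed the test. Rplp0, the stalk base, had log2 intensities of 12.31, 11.93 and 12.29 on the stimulated arrays 1, 2 and 3, against 12.34, 11.46 and 12.24 on the unstimulated arrays. The array numbered 2 was the lowest of each group, and the groups overlapped. The difference was 0.16 ± 0.27 (SE, 95% interval -0.47 to 0.80, limma adjusted p = 0.999975, the value of every member). Rplp1 had 11.51, 12.03 and 12.25 in stimulated cells, against 11.66, 11.89 and 12.01 in unstimulated cells. Rplp2 had 7.59, 8.59 and 8.54 in stimulated cells, against 7.69, 8.62 and 8.50 in unstimulated cells. In Rplp2 the array numbered 1 lay far below the other two in each group, while the group means of 8.24 and 8.27 differed by -0.03.

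Of the other large subunit genes, Rpl29 had the largest difference. Its values were 8.31, 8.49 and 8.97 in stimulated cells, against 8.20, 8.17 and 8.42 in unstimulated cells. The lowest stimulated array lay below the highest unstimulated array, so the groups overlapped. The difference was 0.33 ± 0.21 (SE, 95% interval -0.18 to 0.83), and it was 0.14 without stimulated replicate 3. It came from the 1 probe set that carries the symbol Rpl29 alone. A further 35 probe sets carry it beside other symbols. The brightest of these, at 10.40 and 10.28 in stimulated and unstimulated cells, differed by 0.12 (-0.48 to 0.71). Rpl34 differed by 0.20 (-0.26 to 0.67).

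At the low end, Rpl4, which lines the exit tunnel of the growing chain, had 11.47, 11.27 and 11.37 in stimulated cells, against 11.54, 11.38 and 11.67 in unstimulated cells. These were among the tightest replicates of the family (pooled SD 0.13), yet the highest stimulated array lay above the lowest unstimulated one. The difference was -0.16 ± 0.16 (SE, 95% interval -0.55 to 0.22). Rpl30 differed by -0.20 (-0.65 to 0.25), and by -0.03 without unstimulated replicate 2. Its probe set was dim, at 5.70 and 5.89 in stimulated and unstimulated cells, near the medians of all genes (5.75 and 5.71). A far brighter probe set that Rpl30 shares with other symbols differed by -0.03. Rpl7a differed by -0.10, Rpl27a by -0.10, Rpl41 by -0.11 and Rpl7 by -0.07. Rpl41 encodes the smallest protein of the ribosome.

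Several large subunit proteins are known for roles outside translation or for sensing faulty ribosome assembly. Rpl5, which travels with the 5S ribosomal RNA and restrains the p53 inhibitor MDM2, had 11.56, 11.82 and 11.96 in stimulated cells, against 11.80, 11.63 and 12.03 in unstimulated cells. The arrays interleaved, and the difference was -0.04 (95% interval -0.48 to 0.41). Of the 4 genes measured among 5 listed for this p53 axis, Rpl26, which favours translation of the p53 message, had the highest difference (0.09) and Rpl23 the lowest (-0.05). Rpl10, which is added late in the maturation of the subunit, differed by 0.03 (-0.36 to 0.41), with one of the narrowest intervals. Rpl38, needed in mouse embryos for translation of Hox messages, differed by -0.08 (-0.89 to 0.74). Rpl22, needed for the development of alpha-beta T cells, had 6.96, 7.58 and 7.68 in stimulated cells, against 6.80, 7.66 and 7.31 in unstimulated cells, and differed by 0.16 (-0.52 to 0.83).

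In the small subunit, Rps6 is the substrate of the S6 kinases that act below mTOR. It had 12.50, 12.88 and 12.78 in stimulated cells, against 12.65, 12.94 and 12.86 in unstimulated cells. The values of the groups interleaved, although each stimulated array lay below the unstimulated array of the same number. The difference of -0.10 ± 0.18 (SE) had a 95% interval of -0.52 to 0.33. All 8 probe sets of Rps6 had negative differences, and they are not independent measurements. Rps3, at the entry of the message channel and also known as a partner of the NF-kB subunit p65, had 9.58, 9.30 and 10.06 in stimulated cells, against 9.70, 9.30 and 9.77 in unstimulated cells. The array numbered 3 was the highest of each group, and the difference was 0.05 (-0.52 to 0.63). NF-kB is a target of CD40 signalling, and the level of this message did not pass the test in either direction.

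Rpsa, also known as the laminin receptor, had 12.46, 12.27 and 12.96 in stimulated cells, against 12.52, 12.25 and 12.47 in unstimulated cells. Stimulated replicate 3 alone lay above the unstimulated arrays. The difference was 0.15 (95% interval -0.37 to 0.66), and -0.05 without that array. Rps14, whose loss causes the anaemia of the human 5q deletion syndrome, differed by 0.16 (-0.51 to 0.84), and Rps15a by 0.18 (-0.33 to 0.69). Rps3a1 differed by -0.15 (-0.85 to 0.56) and Rps25, used by some viral internal ribosome entry sites, by -0.05 (-0.87 to 0.78). Rps4x, encoded on the X chromosome, had the tightest replicates of all members (pooled SD 0.10) and differed by -0.04 (-0.41 to 0.32). Of 9 listed genes that are mutated in human Diamond-Blackfan anaemia, a list that does not hold every such gene, 4 were measured, from Rps19 (0.14) to Rpl5 (-0.04).

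Paralogs with names ending in l or l1 are relatives of ribosomal protein genes. Rps27l, which p53 induces, had 11.10, 11.94 and 11.86 in stimulated cells, against 11.07, 12.14 and 11.72 in unstimulated cells. The array numbered 1 was low in each group, and the difference was -0.01 (95% interval -0.81 to 0.78). Rpl7l1 had 5.77, 5.62 and 6.15 in stimulated cells, against 5.89, 5.55 and 5.34 in unstimulated cells. The groups overlapped, with a difference of 0.25 (-0.27 to 0.77) that was -0.03 without the arrays numbered 3. Rps4l, which RefSeq lists as a transcribed pseudogene, differed by 0.12 (-0.53 to 0.76), and Rpl32l by 0.03 (-1.06 to 1.13).

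While the groups did not separate, the arrays within each group did. The median log2 intensity of the 58 genes was 11.06, 11.64 and 11.84 on stimulated arrays 1, 2 and 3, against 11.17, 11.64 and 11.69 on unstimulated arrays 1, 2 and 3. The array numbered 1 was thus the lowest in each group. The median of all genes ran the other way, at 5.80, 5.66 and 5.77 on the stimulated arrays, against 5.78, 5.63 and 5.68 on the unstimulated ones. In 41 of the 58 genes (70.7%) the array numbered 1 was the lowest of its group in both groups, against 23.4% of all genes. It was the highest in both groups for 2 members, Rplp0 and Rps2, against 26% of all genes. The labels number biological replicates and do not say whether a number marks a shared day or batch, and this description carries no test.

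**Figure D2:**
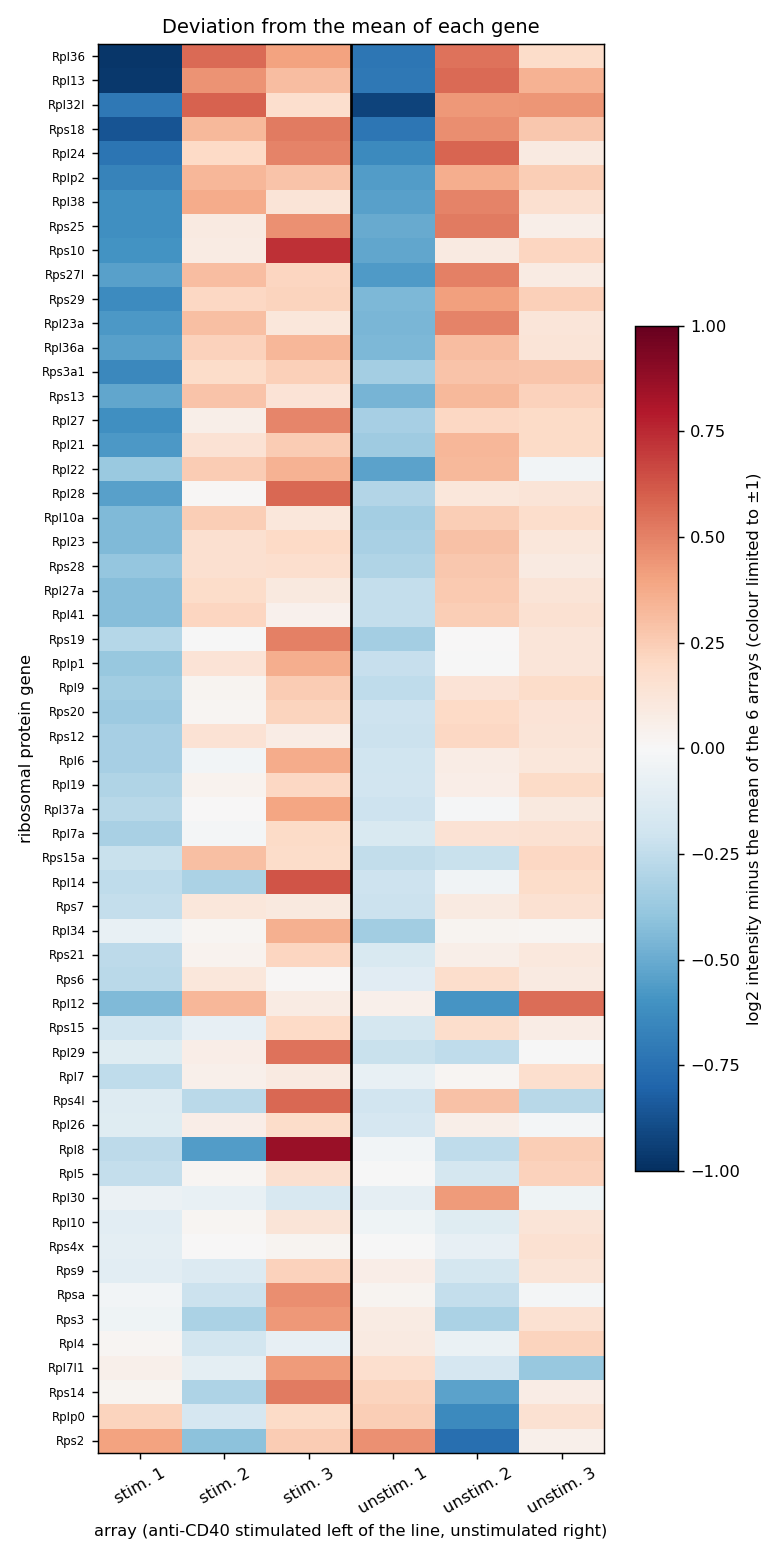
Log2 intensity of each of the 58 ribosomal protein genes on each array minus the gene's mean over the 6 arrays (colour, limited to 1 either way), stimulated arrays left and unstimulated arrays right of the line, genes ordered by their offset on the arrays numbered 1. Those arrays are low in both groups for 41 genes, while the lowermost rows, Rplp0 and Rps2, run the other way.

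The offset of the arrays numbered 1 from the mean of the other two of the group had a median of -0.62 in stimulated and -0.48 in unstimulated cells over those 41 genes. It was widest in Rpl36, Rpl13, Rpl32l and Rps18. Rpl36 had 8.98, 10.53 and 10.36 in stimulated cells, against 9.23, 10.50 and 10.14 in unstimulated cells. Rpl13 had 9.78, 11.20 and 11.06 in stimulated cells, against 10.03, 11.32 and 11.09 in unstimulated cells. In both genes each array numbered 1 lay more than 1 log2 unit below the mean of the others of its group, while the group means differed by -0.003 for Rpl36 and -0.13 for Rpl13. Rps18 had 10.44, 11.63 and 11.82 in stimulated cells, against 10.58, 11.77 and 11.58 in unstimulated cells.

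Rps2 showed the opposite order, with 12.01, 11.20 and 11.86 in stimulated cells, against 12.06, 10.85 and 11.65 in unstimulated cells. Its array numbered 2 was the lowest of each group. The 17 members that did not have the array numbered 1 lowest in both groups were Rpl4, Rpl5, Rpl8, Rpl10, Rpl12, Rpl14, Rpl29, Rpl30, Rpl7l1, Rplp0, Rps2, Rps3, Rps4l, Rps4x, Rps9, Rps14 and Rpsa. Stimulated replicate 3 was the highest stimulated array for 38 members (65.5%), against 28.2% of all genes. This was not particular to the family. The median deviation from the gene mean on that array was 0.23 over the members and 0.32 over mitochondrial ribosomal proteins. In Rpl8 stimulated replicate 3 stood at 11.95, against 10.82 and 10.53 on the other stimulated arrays and 11.06, 10.83 and 11.33 on the unstimulated arrays.

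**Figure D3:**
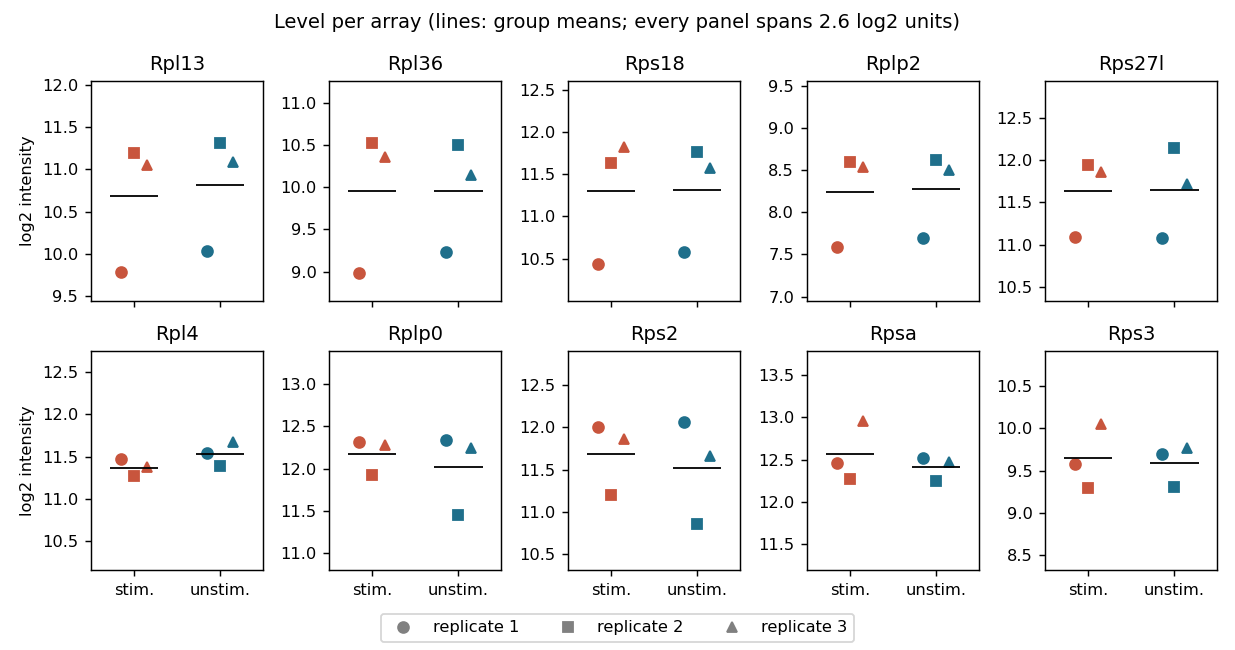
Log2 intensity per array of 10 ribosomal protein genes, stimulated left and unstimulated right in each panel, symbols for replicate numbers and lines for group means; every panel spans the same range. In the upper row the array numbered 1 is the lowest of each group, and in Rplp0 and Rps2 the array numbered 2 is the lowest; the genes were picked to show these orders.

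Spread between the arrays of a group enters the error of the comparison. The pooled SD within groups had a median of 0.33 over the members, against 0.28 over all genes, and ran from 0.10 (Rps4x) to 0.76 (Rpl36). Its median was 0.34 over the 41 genes with the array numbered 1 lowest in both groups, and 0.27 over the 17 others. The half-width of the 95% interval ran from 0.37 to 1.13. The interquartile range of log2 intensities over all genes was widest on the arrays numbered 1. It was 2.31, 1.75 and 2.03 on the stimulated arrays 1, 2 and 3, against 2.19, 1.74 and 1.92 on the unstimulated arrays. In each group the array numbered 3 had a wider range than the array numbered 2, and also a higher median of the members. The part of this range in the offset was not tested. With that range as a covariate 0 members passed, and the median difference was 0.05. In sorted bulk samples fewer cells of a type and less RNA per cell cannot be told apart.

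The median difference of the family took its sign from single arrays. It was 0.16 without stimulated replicate 1, with 55 of 58 genes positive, and -0.15 without stimulated replicate 3, with 8 positive. Without unstimulated replicate 1 it was -0.15, and without unstimulated replicates 2 or 3 it was 0.05 in each case. Without stimulated replicate 2 it was -0.08. In none of these 6 limma fits did a member pass.

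Most ribosomal proteins were measured by more than 1 probe set. The 58 genes had 214 probe sets with their symbol alone, 39 genes having several and Rps12 the most (14). Mammalian genomes hold many processed pseudogenes of these genes, near copies of the message. The annotation does not give the positions of probe sets, so whether the brightest one reads the gene, a copy or both was not analysed here. For 5 genes 19 probe sets had the same values on all 6 arrays as another of the same gene. The differences of the probe sets of a gene spanned a median of 0.07 log2 units, and 11 of the 39 genes had probe sets of both signs. The span was largest for Rpsa, with 5 probe sets from 0.07 to 0.50, and next for Rps15, with 3 from -0.37 to -0.05. Fitted with all 17551 probe sets, 0 of the 214 passed, against 2 of all. Of the 214, 0 had an unadjusted p under 0.05 (3.13% of all probe sets), and 0 had groups that did not overlap (6.71%). The array numbered 1 was lowest in both groups for 177 of the 214 (82.7%), against 27.8% of all probe sets.

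**Figure D4:**
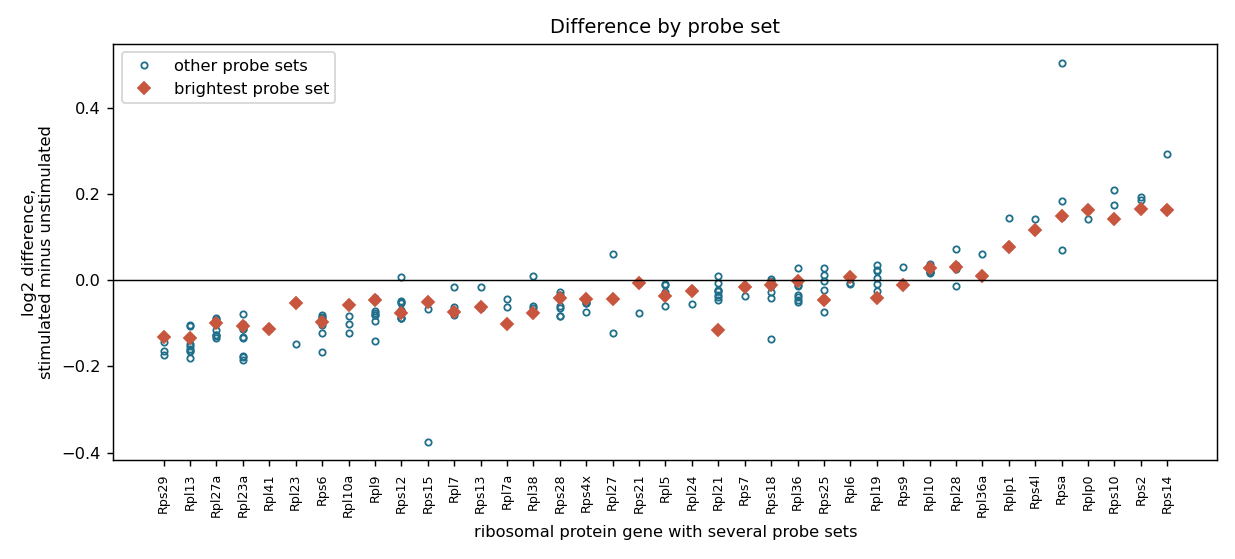
Log2 difference, stimulated minus unstimulated, of every probe set with 1 symbol for the 39 ribosomal protein genes that have several (circles), with the brightest one, used as the gene's value, as a diamond. Most genes span under 0.2 log2 units, and the widest spans are those of Rpsa and Rps15.

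For 18 members further probe sets carried their symbol beside others, and for some of these the brightest shared probe set was far above the one used. Rpl12 was at 5.09 and 5.11 in stimulated and unstimulated cells on its own probe set, and at 12.39 and 12.65 on a probe set shared with the predicted gene Gm32899. Rpl30 was at 5.70 and 5.89 on its own, and at 13.11 and 13.14 on a shared probe set. Rps19 was at 6.17 and 6.03 on its own, and at 9.27 and 9.14 on one shared with Rps19-ps3. The shared probe sets differed by -0.26 (95% interval -0.71 to 0.19) for Rpl12, -0.03 for Rpl30 and 0.14 for Rps19. For Rps15a the sign turned: its own probe set, at 7.34 and 7.17, differed by 0.18, and a brighter shared one, at 11.65 and 11.81, by -0.16 (95% interval -0.90 to 0.59).

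Genes that build or run ribosomes were set beside the family as lists. Of 85 listed ribosome biogenesis genes 78 were measured, and 0 passed, with a median difference of 0.04 (47 positive, 31 negative). The highest statistic was that of Wdr12, which matures the large subunit (0.35, 95% interval -0.03 to 0.72), and the lowest that of Rpf1 (-0.31, -0.74 to 0.12). Of 35 listed genes of mTOR, its regulators and the S6 kinases 32 were measured and 0 passed (median 0.09). By statistic, Nprl2, part of the GATOR1 brake on mTOR complex 1, was highest (difference 0.41) and Rragd, a Rag GTPase, lowest (-0.30). Of 20 genes that handle stalled ribosomes 19 were measured and 0 passed (median 0.12), and the extremes by statistic were Pelo, a ribosome rescue factor (0.31), and the recycling factor Abce1 (-0.20).

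Among 20 listed translation factors and other genes with TOP messages, 18 were measured and 0 passed, with a median of -0.10 (5 positive, 13 negative). The highest statistic was that of Vim, which encodes the filament protein vimentin, at 10.69 ± 0.14 in stimulated and 9.76 ± 0.10 in unstimulated cells (SD, n = 3 each). These groups did not overlap, and the difference of 0.93 had a standard error of 0.16 and a limma adjusted p of 0.308. The lowest statistic was that of the chaperonin gene Cct4 (-0.27). Eef1a1, the elongation factor that brings aminoacyl-tRNA, differed by -0.06. Fau, which encodes a ribosomal protein fused to a ubiquitin-like one and is no member by its name, differed by 0.08. Mitochondrial ribosomal proteins, which serve the separate ribosome of mitochondria, numbered 76. Of these 0 passed, and the median was 0.10 (49 positive, 27 negative), with the highest statistic in Mrpl50 (0.58) and the lowest in Mrps22 (-0.39).

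The order of the arrays also varied between these lists. The array numbered 1 was lowest in both groups for 50% of mitochondrial ribosomal proteins, 33.3% of the translation factor list, 17.9% of biogenesis genes, 18.8% of the mTOR list and 0% of the 19 genes for stalled ribosomes, against 70.7% of the cytosolic ribosomal proteins. The median deviation from the gene mean for cytosolic ribosomal proteins was -0.33, 0.07 and 0.23 on stimulated arrays 1, 2 and 3, against -0.23, 0.14 and 0.13 on the unstimulated arrays. For mitochondrial ribosomal proteins it was -0.22, 0.05 and 0.32 on the stimulated arrays, against -0.20, 0.03 and -0.02 on the unstimulated arrays. For the mTOR list it was 0.20, -0.13 and 0.03 on the stimulated arrays, against 0.18, -0.29 and -0.11 on the unstimulated arrays. The difference between lists was not tested.

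**Figure D5:**
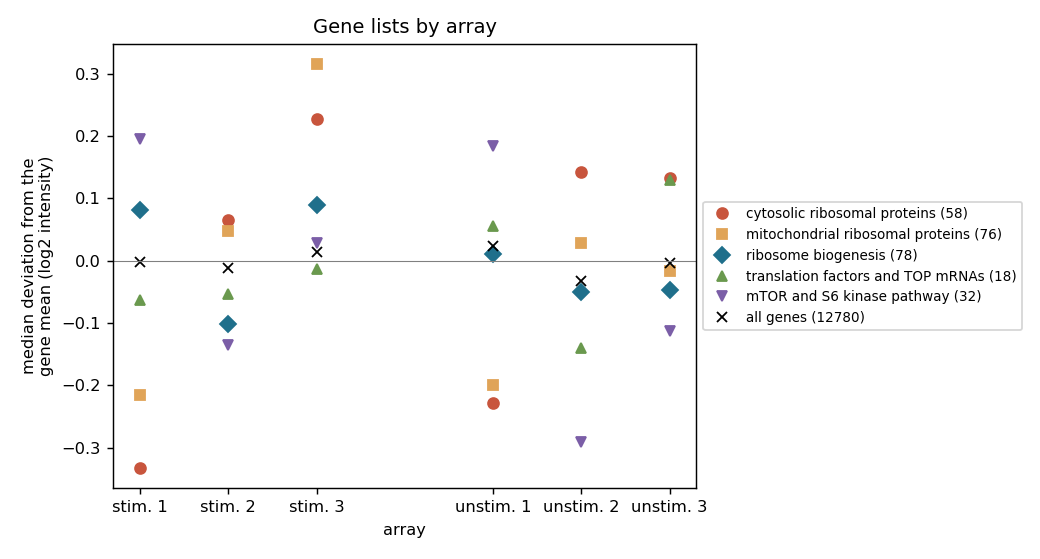
Median over each gene list of the log2 intensity minus the gene's mean over the 6 arrays, per array, stimulated left and unstimulated right; the number of measured genes is in brackets. Cytosolic ribosomal proteins sit at -0.33 and -0.23 on the arrays numbered 1, and mitochondrial ones at -0.22 and -0.20. The mTOR list sits at 0.20 and 0.18 there.

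Levels were read for lists of cell type markers, which do not settle the type. Of 13 genes on the cDC1 list 11 were measured. It was led by the chemokine receptor Ccr7, which directs migration towards lymph nodes, at 12.66 and 12.51 in stimulated and unstimulated cells. Irf8, needed for cDC1 development, was at 11.64 and 11.00. Xcr1, on which the cells were sorted, was at 4.67 and 4.44, Itgae at 4.92 and 4.76, and Wdfy4 at 4.90 and 4.91, all as low as the markers of other cell types. Cd40, a sort marker and the stimulated receptor, was at 9.61 and 8.60 without overlap (limma adjusted p = 0.999975). The measured markers of B cells (3 of 8), T cells (5 of 9), cDC2 (2 of 7), macrophages and monocytes (1 of 11) and Langerhans cells or keratinocytes (5 of 6) had group means between 4.26 and 5.78. Among them Epcam, which encodes the CD326 that was sorted against, was at 5.31 and 4.74 without overlap. All 5 T cell markers were higher in stimulated cells (median difference 0.43), 1 without overlap. Their median deviation from the gene mean was largest on stimulated replicate 3 (0.79). The 2 cDC2 markers were higher, 1 without overlap (3.68% of all genes). Of B cell markers 1 was higher and 2 lower, and of Langerhans cell or keratinocyte markers 1 and 4. The 1 macrophage or monocyte marker was lower. Of all these markers 0 passed, and their part in the results was not tested. The arrays had median intensities, as deposited, of 51.9 to 56.3, and arrays of a group correlated over all probe sets with r from 0.925 to 0.966.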

How the data were processed

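Migratory cDC1 from lymph nodes were measured on 6 one-colour arrays, 3 per group, grouped by sample title. The authors deposited linear intensities (6.97 to 13701) for 17551 probe sets, made with RMA in Affymetrix Expression Console per the submitters' processing notes. The sources used here give no version, build or filter. Log2 was taken of each deposited intensity. For each gene the brightest of its 1-symbol probe sets was used, giving 12780 genes.

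Stimulated minus unstimulated was fitted with limma 3.58.1 under R 4.3.3 (lmFit, eBayes, no covariates, two-sided, Benjamini-Hochberg over all 12780 genes, 95% intervals from the fit). An exact permutation test of 3 against 3 cannot go below p = 0.1 and was not used. The fit was tested on simulated data with independent noise on each array. Those data held no spread shared by arrays of a number, so that test does not cover it. The members and lists were chosen with earlier results of these data known, so groups of genes are described by counts and medians with no test. Genes were named if they passed, had the 8 highest or lowest statistics or the 3 widest or narrowest spreads, were on a fixed list, or were the extremes of another list. Genes named for their order of arrays or shared probe sets (among them Rps18, Rps2, Rpl8, Rpl12 and Eef1a1) were chosen after their values were seen. Alternatives covered the variance model, filtering, normalisation, centring, weights, pairing, left-out arrays, probe set rule and threshold. Array number limits precision. Plots were made in Python 3.11.15 using matplotlib 3.10.9.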

Additional observations from a re-analysis of the deposited data

How the results depend on the processing

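Under 21 alternatives 0 of the 58 ribosomal protein genes passed, higher or lower, and the smallest limma adjusted p of a member was 0.142 (Rpl7l1, 0.61 with array weights). That setting gave 3 members an unadjusted p under 0.05 (Rpl29, Rpl7l1 and Rps4l), with 19.5% of all genes. The median difference stayed within 1 replicate SD, from -0.15 to 0.16. Of 630 combinations of the 30 named members with these alternatives, 73 turned the sign of an uncalled difference and 0 were called. Part of the 630 could turn no sign. The intensity trend, shared variance, filter, threshold and replicate block settings leave each difference as it is. In 4 of the 630 the value moved by over 1 SD: Rpl7l1 (0.61) and Rps4l (0.56) with array weights, Rpl7l1 (-0.03) without both arrays numbered 3, and Rpsa (0.50) on its dimmest probe set. Centring on array medians left 1 member below without overlap (Rpl4), against 6.96% of all genes in either direction, and 16 of 58 positive. Leaving out 1 array gave 0 to 3 members above and 0 to 3 below without overlap, against 12.1% to 20.1% of all genes. Without both arrays numbered 1 the counts were 4 above and 4 below (30.9% of all genes), numbered 2 they were 1 and 1 (28.4%), and numbered 3 they were 2 and 2 (19.5%). Over all genes, 2 were called higher and 0 lower. There were 28 higher and 18 lower with array weights, 11 and 4 with the interquartile range as covariate, 1 lower with quantile normalisation or centring, and 0 higher without any 1 array or both of a number, at an adjusted p under 0.01 or without shared variance. The replicate block called 30 genes higher and 8 lower but 0 members (smallest adjusted p of a member 0.544), and the median SD of members was 0.12 with it. Deviations from group means correlated at 0.73, 0.59 and 0.06 over all genes for the arrays numbered 1, 2 and 3. Over the members these values were 0.90, 0.68 and 0.08. Over all genes, stimulated replicate 1 correlated at -0.60 with unstimulated replicate 2, and stimulated replicate 2 at -0.69 with unstimulated replicate 1. The deviations of a gene within a group cancel by construction. The negative values across numbers are therefore tied to the positive ones and are no separate evidence. By the values of 0.73 and 0.59, arrays numbered 1 and 2 resembled their number in the other group. Unstimulated replicate 3 correlated best with stimulated replicate 2 (0.19). The labels state no pairing, so the main fit took none, and its intervals include the spread shared by arrays of a number.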

Other observations

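Probe sets that carry a ribosomal protein symbol beside other symbols were left out of the comparison. There were 235 of them. Fitted with all probe sets, 0 of the 235 passed, against 2 of all 17551. An unadjusted p under 0.05 was found for 0 (3.13% of all), and groups did not overlap for 0 (6.71% of all). The 235 had a median difference of -0.03. In 191 of them (81.3%) the array numbered 1 was lowest in both groups, against 27.8% of all probe sets. The smallest unadjusted p, 0.0949, was that of a probe set for Rpl13a and Snord34, a small nucleolar RNA that guides the chemical modification of ribosomal RNA and is encoded within an intron of its host gene. It had log2 intensities of 6.77, 5.78 and 7.65 in stimulated cells, against 6.11, 6.02 and 5.39 in unstimulated cells. The groups overlapped, and the difference was 0.89 (95% interval -0.20 to 1.98). The probe sets shared by Rpl12 and Gm32899 had differences from -0.32 to -0.26, and they carry the same symbols and are not independent measurements. One shared by Rpl12 and Snora65 differed by -0.17.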
